A study of Mus musculus with 6 samples.

Results

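Arc, Plk2, Sgk1, Rasd1 and Baiap2 were the 5 genes described here, out of the 345 genes of the deposited table. They were picked by name as effectors best known from stimulated neurons or from hormone and ion signals. The table itself held only genes selected on the difference between the groups of the same 6 libraries, so the members were chosen by the contrast that their values show. All group differences of the 5 genes are therefore given as a description, and calls from fits over the whole table are printed as counts that support nothing about them. The member nearest to the selection threshold, a |log2 fold change| of 1, was Baiap2 at 2.61, and genes outside the threshold were not analysed here.

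The RNA came from RAW264.7, a mouse macrophage cell line. The Control group was 3 samples of untreated cells. The G scaffold group was 3 cultures kept for 48 h in a 5-fold diluted extract of a Zn-0.8Li scaffold with gyroid pores, an alloy of zinc with lithium. Both groups were the same line with no further treatment or allele named, and nothing in the labels says how the 3 samples of a group were kept apart, so their spread may be technical. The submitters' labels mark the groups as genotypes, control and Zn, although the cells differed by the medium. The study asked how degradation products of the scaffold change the macrophage transcriptome.

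The effector genes act downstream of signals at the cell surface. In neurons, synaptic activity raises calcium, the kinases that follow switch on immediate-early transcription factors, and the effectors then reshape the synapse and the cytoskeleton. Outside the brain several of the same genes answer to serum, to glucocorticoids or to changes of salt and cell volume. Arc encodes a cytoskeleton-associated protein that promotes the removal of glutamate receptors from synapses and assembles into capsid-like particles. Plk2 encodes a polo-like kinase, first described as inducible by serum, that weakens overactive synapses. Sgk1 encodes a serum- and glucocorticoid-inducible kinase that raises the activity of sodium channels and other transporters. Rasd1 encodes a small GTPase of the Ras family that was found as a gene induced by dexamethasone. Baiap2 encodes IRSp53, which bends the plasma membrane and links Rac and Cdc42 to the actin of filopodia.

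All 5 genes are listed as protein coding. In the coordinates of the SPRET/EiJ annotation, a Mus spretus strain whose identifiers the table uses, Arc (MGP_SPRETEiJ_G0020769) spans 73903872 to 73907357 of chromosome 15, minus strand. Plk2 (MGP_SPRETEiJ_G0019763) lies on chromosome 13 from 107336360 to 107342857 and Sgk1 (MGP_SPRETEiJ_G0015974) on chromosome 10 from 19434526 to 19559879, both on the plus strand. Rasd1 (MGP_SPRETEiJ_G0017283) spans 59292082 to 59293838 of chromosome 11, minus strand, and Baiap2 (MGP_SPRETEiJ_G0018348) spans 122870149 to 122934046 of the same chromosome, plus strand. In the GENCODE M21 annotation of GRCm38 no other gene overlaps any of the 5.

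Promoter windows were read from RefSeq for GRCm38.p6, each running from 250 bases before to 50 bases after an annotated start. The table held 1 window for Plk2, 6 for Sgk1 and 1 for Baiap2, and Arc and Rasd1 are not in it. The 250 upstream bases of 4 windows are printed because they hold a cAMP response element, a glucocorticoid response element or a TATA box, which are marked in capitals. Window 4 of Sgk1 also holds a TATA box and is not printed. Both strands of the whole windows were searched. The letters are those of the reference strain, and the positions are not those of the count table.
Plk2, chr13:110394794-110395043, plus strand: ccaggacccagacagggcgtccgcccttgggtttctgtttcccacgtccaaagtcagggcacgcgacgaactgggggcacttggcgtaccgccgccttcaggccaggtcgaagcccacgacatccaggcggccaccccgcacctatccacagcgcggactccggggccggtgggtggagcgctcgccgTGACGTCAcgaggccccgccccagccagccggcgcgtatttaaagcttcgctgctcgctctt
Sgk1, window 5, chr10:21993640-21993889, plus strand: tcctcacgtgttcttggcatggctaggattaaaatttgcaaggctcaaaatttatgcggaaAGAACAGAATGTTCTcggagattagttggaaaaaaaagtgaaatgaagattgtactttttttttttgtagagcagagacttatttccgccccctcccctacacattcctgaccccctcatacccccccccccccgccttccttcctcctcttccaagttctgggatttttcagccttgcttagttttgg
Sgk1, window 6, chr10:21994416-21994665, plus strand: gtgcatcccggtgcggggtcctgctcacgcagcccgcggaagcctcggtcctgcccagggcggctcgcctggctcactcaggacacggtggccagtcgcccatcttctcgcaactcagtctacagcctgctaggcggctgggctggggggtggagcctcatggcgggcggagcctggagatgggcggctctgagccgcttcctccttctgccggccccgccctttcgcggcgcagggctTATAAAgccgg
Baiap2, chr11:119942842-119943091, plus strand: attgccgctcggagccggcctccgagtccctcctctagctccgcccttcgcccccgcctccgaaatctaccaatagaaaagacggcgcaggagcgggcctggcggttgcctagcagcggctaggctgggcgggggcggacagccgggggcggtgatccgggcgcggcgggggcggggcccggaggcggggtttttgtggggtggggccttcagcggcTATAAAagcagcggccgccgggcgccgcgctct

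The Plk2 window held the cAMP response element TGACGTCA at positions -62 to -55 from the start, a motif found in 588 of all 32851 windows, or 1.79%. The shorter core TGACG, which is part of that motif, was in 20.8% of windows and also stood in window 2 of Sgk1. Window 5 of Sgk1 held a whole glucocorticoid response element (AGAACA, any 3 bases, TGTTCT) at positions -189 to -175 from its start. Of all windows, 3 held this motif (0.00913%), while its arm AGAACA alone was in 19.0% of them and in windows 1, 4 and 5 of Sgk1. TATAAA was in 13.6% of windows, and stood in windows 4 and 6 of Sgk1 and in the Baiap2 window. The core of the metal response element, TGCACNC or TGCGCNC, was in 25.7% of windows, and matched in window 6 of Sgk1 and in the Baiap2 window just after the start. The CArG box, the AP-1 motif TGANTCA, the MEF2 site and the NF-kB site were in 1.63%, 7.81%, 0.557% and 4.51% of windows, and none was in the 8 windows of these genes. These matches describe letters only, and no binding was measured.

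The values are normalized counts, meaning that a gene's reads were divided by a size factor of the library. These factors lay between 0.924 and 1.05. Every value was a whole multiple (within 0.001) of a single step per library, the worth of 1 read, so each value was also taken as a number of reads. Over the listed genes the libraries held from 88836 to 100895 reads in Control and from 150056 to 156029 in the G scaffold group. The sums leave out all unlisted genes, so they do not give the depth. The number of cells and the RNA per cell cannot be told apart in such samples.

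All 5 genes were higher in each G scaffold library than in each Control library. That held for 82.9% of the genes in the table. In a limma fit over the whole table, all 5 were called higher. The call needed a |log2 fold change| of 1 or more with an adjusted p-value of 0.05 or less. The same call was made for 82.6% of all listed genes, and a call in either direction for 98.6%. The table holds only genes that differed, so nothing is read from these shares. Fold changes below are on the log2(normalized count + 1) scale, with the standard error (SE) of that fit.

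In Control, the normalized count of Arc was 79.5, 59.5 and 67.8 in replicates 1 to 3. In the G scaffold group it was 3583, 3545 and 3619. The G scaffold libraries lay close together, and the lowest of them was 44.6 times the highest Control library. The mean went from 69.0 ± 10.04 to 3582 ± 37.4 (SD, n = 3 per group), or by 5.69 (SE 0.150) on the log2 scale. Among the 345 genes Arc ranked 102 by its Control level per kb and 8 by its G scaffold level per kb.

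Rasd1 was nearly absent in Control, with 1.99, 1.08 and 1.91 normalized counts, which are 2, 1 and 2 reads. The 5 reads together give an exact Poisson 95% interval of 0.545 to 3.92 normalized counts, which covers counting error only. In the G scaffold libraries the gene had 221, 206 and 207 normalized counts, with a mean of 211 ± 8.24 (SD, n = 3). Since no Control library passed 3 reads, the change is given as a bound at a floor of 3 reads per library. Against that floor, 3.03 normalized counts on average, Rasd1 was 69.7-fold higher. The floor lies below the upper Poisson limit of 3.92, so the bound does not cover all of the counting error.

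Plk2 was low but measured in Control, with 24.8, 22.7 and 22.9 normalized counts, and had 449.6, 433 and 460.1 in the G scaffold libraries. The lowest G scaffold library was 17.4 times the highest Control library. The mean went from 23.5 ± 1.17 to 448 ± 13.6 (SD, n = 3 per group), or by 4.20 (SE 0.120) on the log2 scale.

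Sgk1 had 79.5, 60.6 and 63.1 normalized counts in Control. It had 704, 636 and 723 normalized counts in the G scaffold libraries. Even the lowest of these was 7.998 times the highest Control value. The mean went from 67.7 ± 10.3 to 688 ± 46.0 (SD, n = 3 per group), or by 3.33 (SE 0.157) on the log2 scale.

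Baiap2 had the smallest change of the 5 and, per kb of gene length, the highest Control level. It had 268, 248 and 242 normalized counts in Control, and 1633, 1474 and 1520.4 in the G scaffold libraries. The mean went from 253 ± 13.9 to 1543 ± 81.8 (SD, n = 3 per group), or by 2.61 (SE 0.125) on the log2 scale. The nearest libraries of the groups were 5.49 times apart.

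**Figure D1:**
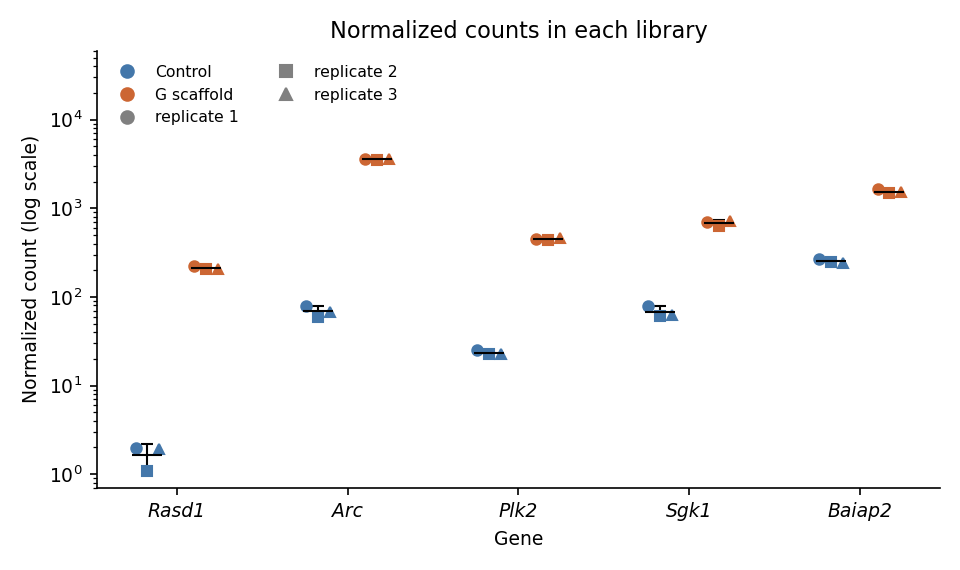
Normalized counts (log axis) of the 5 genes in each of the 6 libraries, with the horizontal bar at the group mean and error bars of 1 SD (n = 3). The groups do not overlap for any gene, and Rasd1 in Control sits between 1.08 and 1.99.

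The spread between replicates was small beside these differences. In the G scaffold group the coefficient of variation was 1.04% for Arc, 3.03% for Plk2 and 3.90% for Rasd1, each below the 1.66%, 4.69% and 6.83% that counting error alone would give for their reads. For Sgk1 and Baiap2 it was 6.69% and 5.30%, above the 3.78% and 2.53% of counting error. In Control it was 4.97% for Plk2, below its counting error of 20.7%, and 14.6% for Arc and 15.2% for Sgk1, near their counting error of 12.1% and 12.2%. With 3 libraries these coefficients are themselves rough.

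The 5 genes had the same highest Control library and the same lowest G scaffold library, although much of their spread was no larger than counting error. The rest of the order differed between the genes. The highest G scaffold library was replicate 1 for 2 of them and replicate 3 for 3. Each of the 5 had its highest Control value in replicate 1, where Rasd1 had the same 2 reads as in replicate 3 and differed by the size factor only. Control replicate 1 was also the highest for 33.0% of the 273 listed genes without tied Control values. Each had its lowest G scaffold value in replicate 2, like 41.3% of the 341 genes without ties there, although for Rasd1 replicates 2 and 3 were nearly equal. Leaving out Control replicate 1 gave log2 fold changes of 5.79 for Arc, 4.23 for Plk2, 3.45 for Sgk1 and 2.65 for Baiap2. Leaving out G scaffold replicate 2 gave 5.70, 4.22, 3.39 and 2.64 in the same order. This pattern was noticed after the values were seen.

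**Figure D2:**
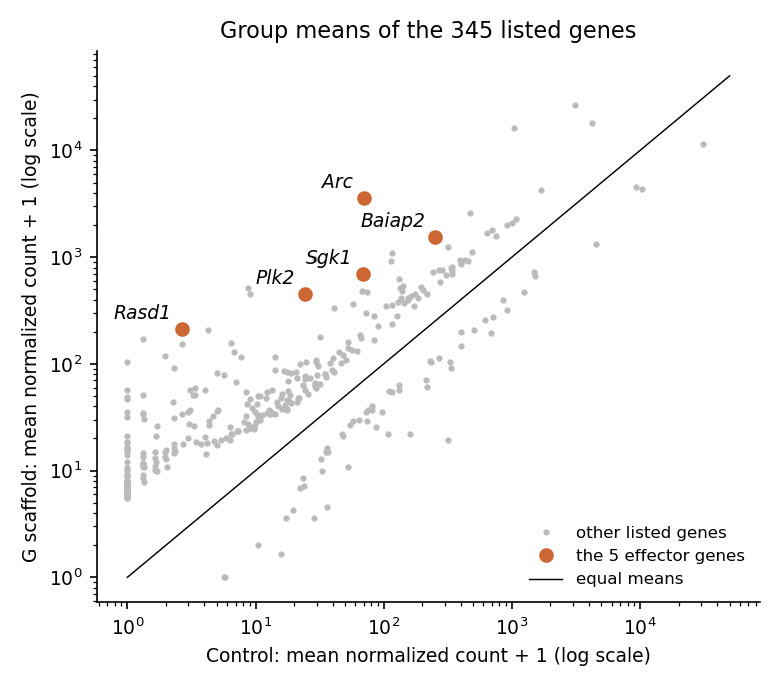
Mean normalized count + 1 in Control (horizontal, log axis) and in the G scaffold group (vertical, log axis) for the 345 listed genes, with the 5 effector genes in orange and a line of equal means. All 5 lie above the line, Arc farthest to the top with means of 69.0 and 3582, and Baiap2 farthest to the right with means of 253 and 1543.

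Levels of different genes were compared per kb of the gene length that the table lists. In Control, Baiap2 was the highest at 50.5 ± 2.78 normalized counts per kb, followed by Arc at 22.6 ± 3.29, Sgk1 at 13.8 ± 2.10, Plk2 at 8.13 ± 0.404 and Rasd1 at 1.03 ± 0.310 (SD, n = 3). No neighbours in this order overlapped between libraries. In the G scaffold group Arc came to 1173 ± 12.2 per kb, Baiap2 to 309 ± 16.4, Plk2 to 155 ± 4.70, Sgk1 to 141 ± 9.40 and Rasd1 to 131 ± 5.09. Here Arc and Baiap2 stood apart from the rest, the highest Sgk1 library (147.9) lay just below the lowest Plk2 library (149.9), and Sgk1 and Rasd1 overlapped. The place of Plk2 rests on its length. With the 4491 exon bases of the GENCODE gene in place of the 2890 bases listed, its G scaffold level was 99.7 per kb, below Rasd1.

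The make-up of the 5 genes within a library does not depend on the size factors. Arc took from 21.7% to 24.6% of their summed level per kb in the Control libraries and from 60.6% to 62.3% in the G scaffold libraries. Baiap2 took from 50.7% to 55.1% in Control and from 15.8% to 16.9% in the G scaffold group. The share of Rasd1 was between 0.744% and 1.28% in Control and between 6.64% and 7.05% in the G scaffold group, while that of Sgk1 was between 13.8% and 15.4% and then between 6.98% and 7.69%. Plk2 alone overlapped between the groups, with 8.13% to 8.74% in Control and 8.04% to 8.27% in the G scaffold libraries.

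**Figure D3:**
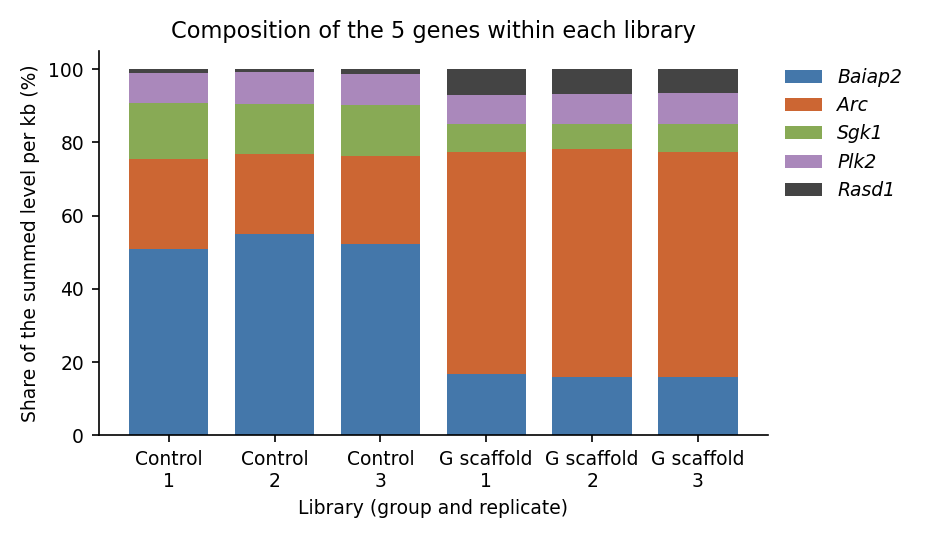
Share (%) of each gene in the summed level per kb of the 5 genes, one bar per library. Baiap2 is the largest part of each Control bar (50.7% to 55.1%) and Arc of each G scaffold bar (60.6% to 62.3%).

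Each gene was also set against Baiap2 in the same library, as a log2 ratio of normalized counts. The log2 ratio of Arc to Baiap2 was -1.75, -2.06 and -1.83 in the Control libraries and 1.13, 1.27 and 1.25 in the G scaffold libraries. The mean log2 ratio differed between the groups by 3.10 for Arc, 1.64 for Plk2 and 0.74 for Sgk1. For Rasd1 the ratio rests on 5 Control reads. In each case the lowest G scaffold library lay above the highest Control library, by 0.54 for Sgk1, the closest of them. The 5 genes thus changed by unequal amounts within the same libraries.

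The size of each change moved with the scaling of the libraries. Scaling shifts well-counted genes by nearly the same amount, and genes with few Control reads by less, because of the pseudocount. TMM factors take most genes as unchanged, a premise that is not met in a table of genes selected as differing. Computed over the listed genes, they lowered the median log2 fold change by 1.39, and totals lowered it by 0.60. Here and below, values with TMM factors show how far a choice of scaling can move the numbers. They do not show whether a gene changed. Under TMM factors the log2 fold changes were 4.21 for Arc, 2.74 for Plk2, 1.86 for Sgk1 and 1.12 for Baiap2, all still past the threshold of 1. Relative to the median of the table, which was 1.87 as deposited, Arc was higher by 3.82, Plk2 by 2.33, Sgk1 by 1.47 and Baiap2 by 0.74. With TMM factors these differences were 3.73, 2.26, 1.38 and 0.65.

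**Figure D4:**
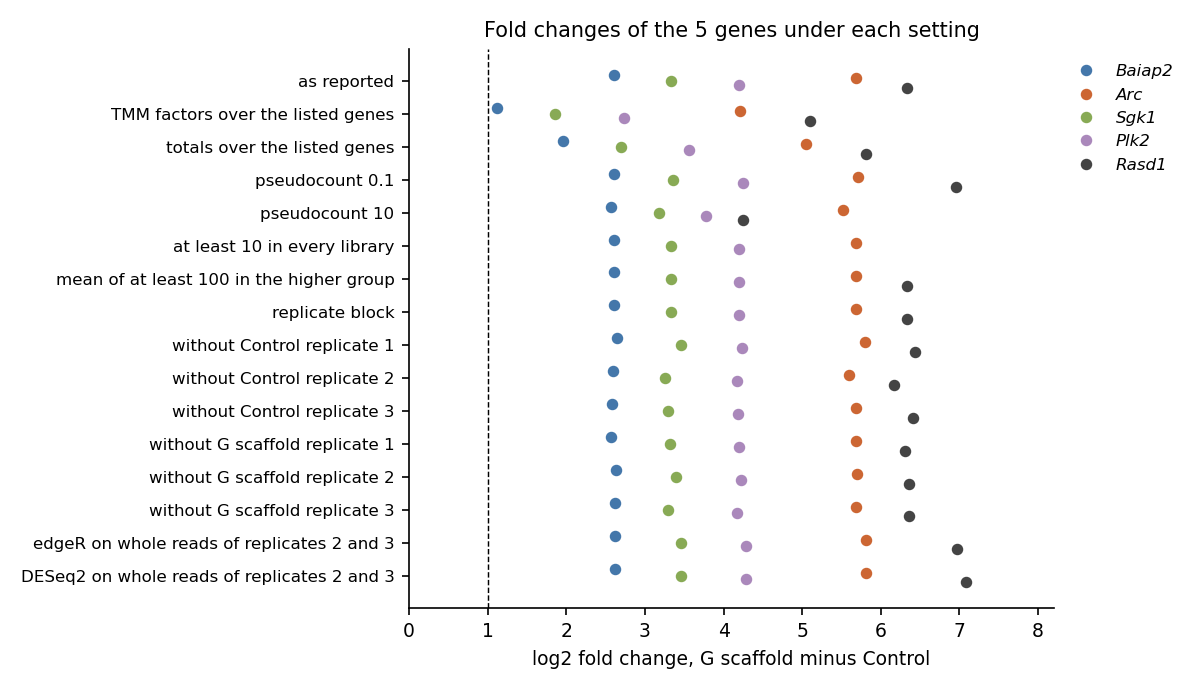
log2 fold change (horizontal, G scaffold minus Control) of each gene under each setting, with the threshold of 1 dashed. All points lie above the threshold, Baiap2 is lowest at 1.12 under TMM factors, and the fitted value of Rasd1 moves from 4.25 with pseudocount 10 to 7.09 with DESeq2.

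Other effectors known from stimulated neurons were read from a list of 42 genes, of which 12 were in the table, the 5 above and 7 more. All 12 were called higher, in a table where 82.6% were, with a median log2 fold change of 2.76 (2.68 with the 3 genes that had at most 3 reads in each Control library at their bound) against 1.87 for the whole table. Without the 5 members, which were chosen on this contrast, the median of the fitted values was 2.65. Gpr3, without Control reads, stands in it at a fitted log2 fold change of 2.81. With its bound the median would be lower. With TMM factors all 12 were above 0 and 10 were called higher, beside 38.8% of all listed genes. These 10 include the 5 members and leave out Ptgs2 and Plk3 (0.78 and 0.25). This list and those below were made with earlier results of these data known, so nothing is read from their shares. Plat, which encodes tissue plasminogen activator, had 149.2, 151 and 156 normalized counts in the G scaffold libraries and at most 3 reads in Control. Against the floor of 3 reads per library it was 50.2-fold higher. Vgf, the gene of a secreted neuropeptide precursor, had 7.46 ± 2.004 normalized counts in Control against 53.7 ± 9.93 with the extract. Arl4d, a small GTPase gene, had 13.3 ± 5.06 and 86.1 ± 14.6. Ptgs2, the gene of the inducible cyclooxygenase, had 21.3 ± 8.97 and 98.8 ± 15.8, and Mmp9, the gene of a matrix protease, had 2.42 ± 1.73 and 17.7 ± 2.11 (SD, n = 3 per group). Gpr3, the gene of a constitutively active receptor, had no Control reads and was at least 2.05-fold higher.

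A second list held 31 immediate-early genes, most of them transcription factors. Of these, 9 were in the table and all 9 were called higher, as were 82.6% of all listed genes. Whether they acted upstream of the effectors was not tested. Their median log2 fold change was 1.74, below the 1.87 of the whole table. With TMM factors 2 of the 9 were called higher, beside 38.8% of all listed genes, 7 lay above 0, and Nr4a1 and Ier2 lay below it (-0.10 and -0.42). Fosb and Fosl1, genes of AP-1 subunits, had log2 fold changes of 6.03 (SE 0.445) and 2.86 (SE 0.165). Egr1, a zinc-finger factor gene that is known to act on the Arc gene in neurons, had means of 467 ± 17.3 and 2610.5 ± 179 (SD, n = 3 per group), and Fos had a log2 fold change of 1.98. With TMM factors the log2 fold changes of Egr1 and Fos were 0.997 and 0.50, short of a call. Maff, Myc and Ier3 had log2 fold changes of 1.74, 1.498 and 1.49, and came to 0.27, 0.10 and 0.0049 with TMM factors.

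Sgk1 and Rasd1 are also classical glucocorticoid-induced genes, and 8 of 28 genes on a list of that response were in the table, all called higher like 82.6% of the table, with a median log2 fold change of 3.22. Without Sgk1 and Rasd1, which were chosen on this contrast, the median of the 6 others was 3.06. With TMM factors 6 of the 8 were called higher, Sgk1 and Rasd1 among them, beside 38.8% of the table, and Errfi1 lay below 0 (-0.20). Dusp1, the gene of a MAP kinase phosphatase, had 114 ± 11.4 normalized counts in Control and 924 ± 53.6 with the extract, and Ddit4, the gene of an inhibitor of mTOR, 131 ± 2.83 and 622 ± 21.6 (SD, n = 3 per group). The metallothionein genes Mt1 and Mt2, with log2 fold changes of 3.10 and 3.97, are on this list and on one of 13 zinc-response genes, of which 4 were in the table and called higher. The remaining Slc30a1 and Hmox1 had log2 fold changes of 1.10 and 1.36, which with TMM factors were -0.38 and -0.13. Tgm2, a transglutaminase gene, was 19.5-fold higher against the floor of 3 reads per library. Tsc22d3, Fkbp5 and Per1, best known among glucocorticoid targets, were not in the table, so their levels were not analysed here.

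**Figure D5:**
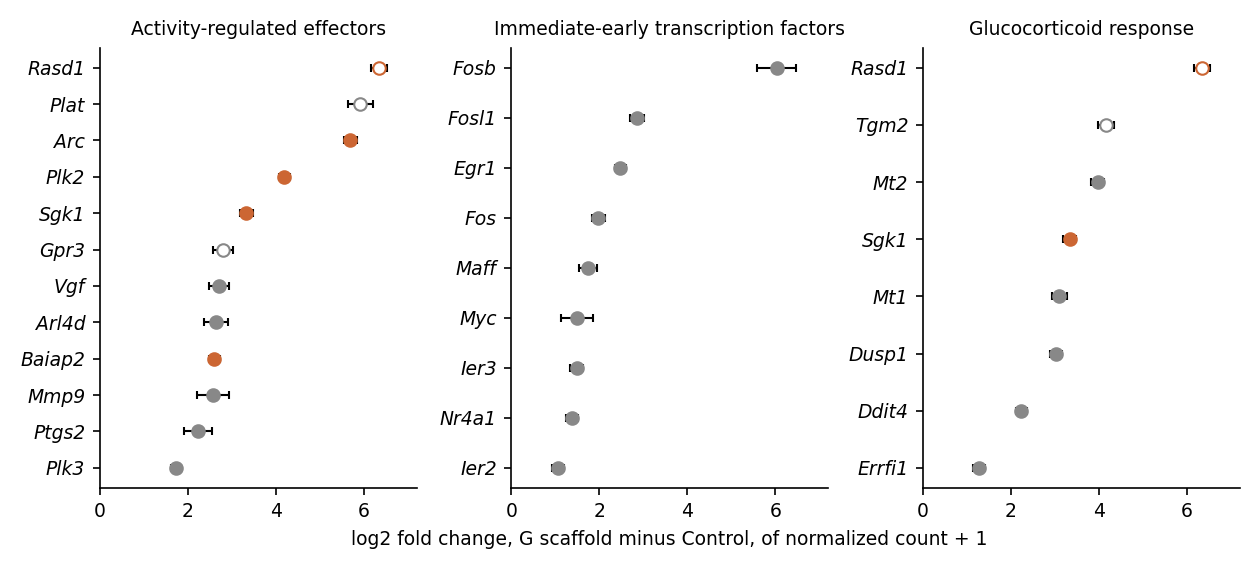
log2 fold change (G scaffold minus Control, of normalized count + 1) with its SE for the genes of 3 lists that were in the table, the 5 effector genes in orange. Open symbols had at most 3 reads in each Control library, so their position depends on the pseudocount; Rasd1, Arc, Plk2 and Sgk1 lead the first panel together with Plat.

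Of 43 genes of relatives or partners of the 5 proteins, 3 were in the table. No share over all genes is given beside this count, so nothing is read from it. Of the 3, 2 were called higher and 1 lower, beside 285 and 55 of all 345 listed genes. Plk3, a second polo-like kinase gene, had 100.4, 106 and 104 normalized counts in Control and 326, 345 and 368 in the G scaffold libraries. Its log2 fold change of 1.73 (SE 0.123) was below the 4.20 of Plk2, and was 0.25 with TMM factors. Nos1, the gene of neuronal nitric oxide synthase, to which the Rasd1 protein is linked through an adaptor, was lower in the G scaffold group, at 15.4 ± 3.82 against 35.0 ± 7.14 normalized counts (SD, n = 3 per group). Sh3gl3, the gene of an endophilin, the protein family that Arc binds, had no Control reads and was at least 3.66-fold higher. The other 40 genes, Sgk3, Rasd2 and Baiap2l1 among them, were not in the table.

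Of 36 genes tied to the actions of SGK1 on ion transport, 4 were in the table, 2 called higher and 2 lower. Of all 345 listed genes, 285 were called higher and 55 lower. With TMM factors 1 of the 4 was called higher and 2 lower, beside 134 and 58 of all listed genes. Atp1b2, the gene of a beta subunit of the sodium pump, had 194, 138 and 173 normalized counts in the G scaffold libraries and at most 1 read in Control, and was at least 55.5-fold higher. Fxyd2, the gene of another pump subunit, had 5267, 5741 and 2660.1 normalized counts in Control and 1352, 1190 and 1419 in the G scaffold libraries, with Control replicate 3 well below the others. Nedd4l, the gene of the ubiquitin ligase that SGK1 inhibits, had a log2 fold change of 1.17, which was -0.29 with TMM factors. Ndrg4, from a family that holds SGK1 substrates, had a log2 fold change of -1.37.

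The profile of each gene was compared with all other named genes of the table by the root mean square difference over the 6 libraries, each profile on the log2 scale and centred on its own mean. For Arc the nearest genes were Sprr1a, Grhl2 and Tex19.1 (0.15, 0.18 and 0.25), all without a Control read, so that their likeness depends on the pseudocount. Plk2 was nearest to Tgm2, Rgcc and Mt2 (0.13, 0.15 and 0.17). Of these, Mt2 was well measured in both groups. Among the genes nearest to Sgk1 were Gadd45b and Cxcl2, at 0.18 each. Rasd1 was nearest to Efcab6, Arc and Plat (0.29, 0.34 and 0.36), but with at most 2 reads of Rasd1 in each Control library these distances depend on the pseudocount too. Baiap2 was nearest to Rtbdn, Arhgap42 and Egr1 (0.057, 0.098 and 0.12), of which Rtbdn and Arhgap42 had no Control read. Among the 4 members with more Control reads, Sgk1 and Baiap2 were 0.38 apart, Sgk1 and Plk2 0.44, and Arc and Baiap2 1.54. As the libraries form only a Control and a G scaffold group, these distances mostly restate differences in log2 fold change, with some replicate scatter. Shared regulation was not tested.

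Marker genes were checked as far as the table allows. Of 15 macrophage markers the table held Mpeg1, the gene of perforin-2, at 9263 ± 595 normalized counts in Control against 4530.0 ± 329 with the extract (SD, n = 3 per group). Of 15 neuron markers it held Tubb3, at 14.1, 14.5 and 2.94 normalized counts in the G scaffold libraries and 1 read in all of Control. Of 11 fibroblast and osteoblast markers it held Col1a1, at 4.89 to 8.68 normalized counts in the G scaffold libraries and no read in Control, and of 5 endothelial markers Vwf, at 23.1 ± 8.75 and 75.3 ± 14.2. None of the 7 astrocyte, 7 epithelial and 8 lymphocyte markers was in the table. Markers outside the table were not analysed here, and the part of other cells in the values of the 5 genes was not tested.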

How the data were processed

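RNA-seq of 3 Control and 3 G scaffold samples of RAW264.7 cells was read from one deposited table of 345 genes. Its signal columns are reads per gene after the authors' division by library size factors. The authors also deposited group means, fold changes and p-values, which were not used. The submitters' processing notes name GRCm38 and mm10, but 329 identifiers belong to the SPRET/EiJ annotation and the listed positions of the 5 genes differ from those in GRCm38. Reads that match that strain poorly could lower a gene in both groups, which was not tested. The study's methods name an online platform for the analysis, while the aligner and the counter are not given in the sources used here. Genes that did not pass the authors' thresholds were not analysed here, so all values are conditional on that selection.

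The main fit was limma 3.58.1 (lmFit and eBayes, R 4.3.3) on log2(normalized count + 1) over all 345 genes, with the group as its single term and p-values adjusted after Benjamini and Hochberg. No filter was applied. A gene with at most 3 reads in each Control library was given a bound against a floor of 3 reads per library. The bound is conditional on that floor, which for Rasd1 lies below the upper limit of its counting error. No library was a copy of another: within groups the chi-square per degree of freedom ran from 2.13 to 7.93. The script was tested on simulated counts. The alternatives were pseudocounts of 0.1 and 10, scaling by TMM factors or by totals of listed genes, 2 filters, stricter thresholds, fits without 1 library, the replicate number as a block, and edgeR 4.0.16 and DESeq2 1.42.0 on whole reads. The members, gene lists and motifs were chosen with earlier results of these data known. The genes named were the members, the listed genes of each gene list and, for each member, the 3 named genes nearest in profile, of which 1 is not reported here. Promoter sequences are from RefSeq for GRCm38.p6. The protein sequences planned for were not used here. Tables and figures were made in Python 3.11.15 with pandas 2.3.3, numpy 2.4.6, scipy 1.17.1 and matplotlib 3.10.9.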

Additional observations from a re-analysis of the deposited data

How the results depend on the processing

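All 5 genes were called higher in every alternative in which they were fitted. Rasd1 left the fit with a filter of at least 10 in every library, which kept 4 of the 5. Across the fits that each left out 1 library, the log2 fold changes ran from 5.59 to 5.79 for Arc, 4.17 to 4.23 for Plk2, 3.26 to 3.45 for Sgk1 and 2.56 to 2.65 for Baiap2. The fitted value of Rasd1, 6.34 with pseudocount 1, was 4.25 with pseudocount 10 and 5.10 with TMM factors. Of all listed genes, 340 were called, which became 192 with TMM factors, 156 with at least 10 in every library and 116 where the higher group had to average 100 or more; the filters leave 161 and 118 genes to test. TMM factors also moved the share of calls that were higher from 83.8% to 69.8%, and at least 10 in every library to 73.7%. Count tests were run on replicates 2 and 3 of each group, since in both replicates 1 the value of a read lies too near 1 for an automatic check of whole reads. There edgeR called 326 genes and DESeq2 298, all 5 members among them. With the replicate number as a block, 339 genes and all 5 members were called. The block cannot move a fold change in this balanced design, and the log2 fold change of Arc was 5.69 with it. Same-numbered libraries did not deviate together (r of 0.0047, -0.035 and -0.071 over the listed genes), so the numbers were not taken as pairs. The length of Plk2 per kb was exchanged after the data were seen. Low Control reads limit Rasd1, and the true depth is unknown.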
